A study of Rattus norvegicus with 3 samples.

Results

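Phosphodiesterase 6 (Pde6) is the effector enzyme of vertebrate phototransduction, and its subunit genes were followed here in the rat pineal gland, a melatonin-secreting organ that shares much of its gene expression with retinal photoreceptors. The members were chosen by name as the rod and cone forms of the subunits, with the values of a deposited table added up over entries of the same symbol. Of 6 subunit genes named, 5 were analysed, each with 1 entry, out of 16629 genes and regions: Pde6a, Pde6b, Pde6c, Pde6d and Pde6h. Pde6g, the rod inhibitory subunit, was not analysed here, so rod and cone forms could be set against each other for the catalytic subunits and not for the inhibitory ones.

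The animals were adult rats of the Sprague-Dawley strain in a lighting cycle with 14 h light and 10 h darkness, and 3 libraries of poly(A) RNA were compared. The pineal gland was sampled at midday, zeitgeber time 7 (hours after lights on), and at midnight, zeitgeber time 19. The reference library, also from zeitgeber time 7, was a pool of equal amounts of RNA from 15 tissues other than the pineal gland. These were the retina and pituitary, several brain regions with the spinal cord, and the adrenal gland, liver, kidney, heart, lung, small intestine and skeletal muscle. Each group had 1 library, so no difference below has a replicate check and no p-value is given. The labels do not say how many animals stand behind a library. The design asks what distinguishes the pineal transcriptome by day and by night, and from that of other tissues.

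In rods and cones, light-activated opsin switches on the G protein transducin, and its alpha subunit relieves the inhibition of Pde6, which then hydrolyses cyclic GMP and lets cyclic nucleotide-gated channels close. The rod enzyme has different alpha and beta catalytic chains, encoded by Pde6a and Pde6b, whereas the cone enzyme carries a pair of identical alpha prime chains, encoded by Pde6c. A small gamma subunit, from Pde6g in rods and Pde6h in cones, holds the catalytic chains inactive in the dark. Pde6d encodes a prenyl-binding protein that carries lipid-modified proteins, Pde6 catalytic chains among them, to the photoreceptor outer segment, and it is expressed in many tissues.

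Levels are in the deposited unit FPKM, which divides the fragments of a transcript by its length in kb and by the library's mapped fragments, so that levels of different genes can be set side by side. The depth of each library was estimated from the smallest steps in the values of single-exon receptor genes, as the fragments per kb that 1 FPKM stands for: 8.73 by day, 5.29 by night and 9.72 for the mixed tissues. The night figure rests on 4 gene models, against 22 and 23 for the others. Bounds below are exact 95% Poisson bounds for a transcript of 1 kb at these depths. For a ratio, the lower bound of 1 library was set against the upper bound of the other, which is wider than a 95% interval. They cover counting error only, not differences between animals, and would be narrower for a longer transcript and wider for a shorter one. The detection floor, 3 fragments on a transcript of 1 kb, was 0.34 FPKM by day, 0.57 by night and 0.31 in the mixed tissues.

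The tissue labels were checked against marker genes. All 8 pinealocyte markers, among them Tph1 and Asmt, reached 1 FPKM in both pineal libraries, and their summed level was 6147 FPKM by day, 7237 by night and 40.4 in the mixed tissues. Of 7 rod markers 6 were analysed, with summed levels of 587, 431 and 599 FPKM in that order. They did not go one way: Rom1, a disc membrane protein, was at 442, 313 and 108 FPKM, Cngb1, a channel subunit, at 55.7, 47.2 and 9.02, and Reep6 at 74.2, 60.3 and 55.6, while Cnga1 was at 13.1, 9.76 and 30.1. Those of rod transducin and rod fate were near 0 in the gland: Gnat1, the rod transducin alpha subunit, was at 1.59 FPKM by day, 0.89 by night and 355 in the pool, and Nrl, a transcription factor of rod fate, was at 0.41, listed at 0, and at 41.5. Of 8 cone markers 7 were analysed, with summed levels of 3050, 2786 and 40.7 FPKM, and Opn1mw, the middle-wavelength cone opsin, was listed at 0 in both pineal libraries. The part of cell composition in the results below was not tested: in tissue RNA, fewer cells of a type and less RNA per cell cannot be told apart.

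Pde6c, the cone catalytic subunit (NM_001108522; chr1:242459652-242515102, rn4), was the member most abundant in the gland. It stood at 155.9 FPKM by day (bounds 147.7 to 164.4), 229.4 by night (216.7 to 242.7) and 1.10 in the mixed tissues (0.54 to 1.99). Both pineal libraries were far above the pool, and their bounds did not overlap each other. By level Pde6c ranked 151 by day and 97 by night among the 16629 genes and regions, and 11566 in the mixed tissues.

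Against the mixed tissues, Pde6c was 141-fold higher by day and 208-fold higher by night in FPKM. On the scale of log2 ratios of FPKM + 1, which understates the change of genes with low values, these were 6.22 (counting bounds 5.64 to 6.74) and 6.78 (6.19 to 7.30). Only 0.059% of the 11934 genes compared by day had a higher ratio, and 0.059% of 11951 by night. The 2 comparisons share the mixed-tissue library. Because retina made up 1 of 15 equal parts of the pool, a retina that supplied all Pde6c of the pool would have had 16.5 FPKM, if its RNA held the same share of messenger RNA as the other tissues. Day and night pineal levels were both above that figure.

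**Figure D1:**
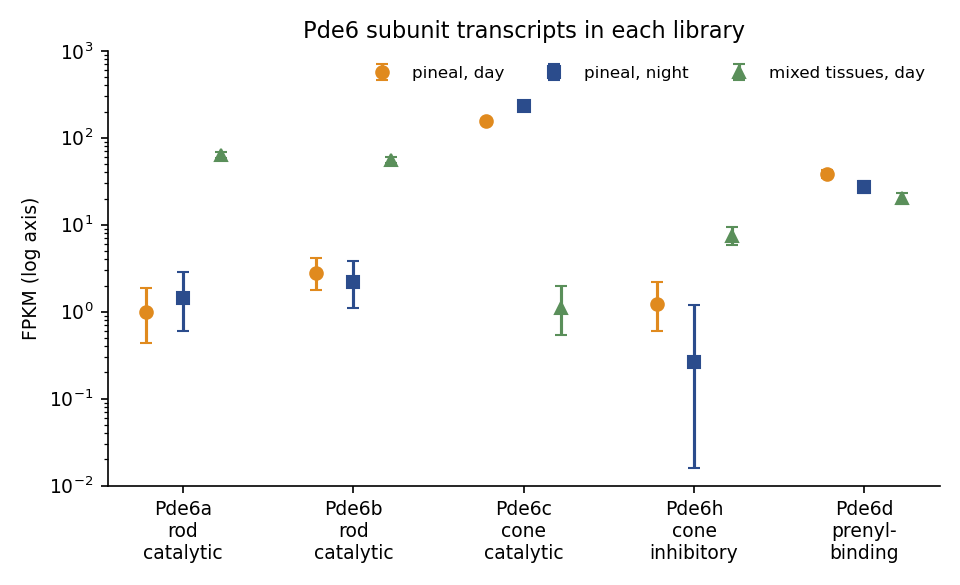
FPKM of the 5 Pde6 subunit genes (vertical log axis) in the day, night and mixed-tissue libraries, 1 library each, with bars for exact 95% Poisson bounds of a 1 kb transcript. Pde6c is the highest member in both pineal libraries, at 155.9 and 229.4 FPKM, and the lowest in the mixed tissues, at 1.10, while Pde6a and Pde6b are the highest members in the mixed tissues.

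The rod catalytic genes had the reverse pattern. Pde6a, the rod alpha chain (NM_001107386; chr18:57194725-57268536, rn4), was at 0.99 FPKM by day (bounds 0.44 to 1.90), 1.43 by night (0.60 to 2.87) and 63.7 in the mixed tissues (58.7 to 68.9). Pde6b, the rod beta chain (NM_001106024; chr14:1871036-1914170, rn4), was at 2.75 FPKM by day (1.77 to 4.10), 2.18 by night (1.11 to 3.85) and 55.7 in the mixed tissues (51.1 to 60.6). For both genes the pineal bounds overlapped each other and lay below those of the pool.

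By day, the log2 ratio against the mixed tissues was -5.03 for Pde6a (bounds -5.60 to -4.37) and -3.92 for Pde6b (-4.48 to -3.35). In FPKM, the pool was 64.6-fold and 20.2-fold higher. By night the log2 ratios were -4.73 for Pde6a and -4.16 for Pde6b. In the mixed tissues the levels of the rod chains were close, with Pde6a at 1.14 times Pde6b. In the gland Pde6a was at 0.36 times Pde6b by day and 0.66 times by night, but the bounds of the 2 genes overlapped in both libraries.

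The low pineal values of Pde6b carry a further limit. An unnamed region of the same table, PFAR32 (chr14:1871899-1982300, rn4), covers 98.0% of the deposited span of Pde6b and runs on for 68130 bp past its higher coordinate. The level of PFAR32 was 11.2 FPKM by day, 3.08 by night and 1.32 in the mixed tissues. It was thus above that of Pde6b in both pineal libraries and below it in the pool. No source used here states how fragments of the shared stretch were assigned, and the part of PFAR32 in the pineal values of Pde6b was not tested. No entry overlapped the spans of the other 4 members.

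The stretches before the transcription starts of the rod genes are shown because both genes had the same direction against the pool and both stretches hold the letters TAATC. Of the 5 members, 3 matched an entry of the RefSeq promoter table (build GRCr8): Pde6a, Pde6b and Pde6h. The 250 bases that precede each start are printed 5′ to 3′ on the strand of the gene, at chr18:56946999-56947248 (plus strand) for Pde6a and chr14:1511436-1511685 (minus strand) for Pde6b. Capitals mark matches to TAATC or TAATCC, the core bound by the photoreceptor and pineal homeobox proteins Crx and Otx2, and to TGCTGAC, a half-site of the large Maf family to which Nrl belongs.
Pde6a: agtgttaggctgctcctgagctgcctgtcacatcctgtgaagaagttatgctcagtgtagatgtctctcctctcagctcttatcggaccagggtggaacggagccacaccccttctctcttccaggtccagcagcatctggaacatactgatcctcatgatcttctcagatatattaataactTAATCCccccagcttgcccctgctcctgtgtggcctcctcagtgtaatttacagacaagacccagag
Pde6b: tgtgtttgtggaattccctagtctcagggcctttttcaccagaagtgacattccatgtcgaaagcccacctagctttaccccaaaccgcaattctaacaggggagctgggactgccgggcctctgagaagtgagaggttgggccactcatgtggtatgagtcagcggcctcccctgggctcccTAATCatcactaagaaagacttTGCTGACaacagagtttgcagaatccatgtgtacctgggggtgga

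Motifs were searched on both strands, and every match to TAATCC is also a match to TAATC. The TAATC match begins 67 bases before the start in both Pde6a and Pde6b, and in Pde6a it extends to TAATCC. The TGCTGAC match of Pde6b begins 45 bases before the start. Over the same 250 bases, 20.5% of 33469 rat promoters hold TAATC, 6.34% hold TAATCC and 3.53% hold TGCTGAC. The Pde6h stretch holds none of these letters, and none of the 3 members holds CACGTG, the E-box bound by clock proteins, which 5.59% of promoters hold. Among 20 phototransduction genes with a promoter entry, 9 hold TAATC, 5 hold TAATCC and 0 hold TGCTGAC. A gene was counted here if any of its entries matched, whereas the percentages are per promoter entry, so the units differ. These motifs were chosen with the expression values known, and a match is a description of letters, not of binding.

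Set against each other within each library, the catalytic forms gave opposite proportions in the gland and in the pool. By day in the gland, Pde6a and Pde6b together made 3.74 FPKM against 155.9 for Pde6c, so that the rod form was 2.34% of the catalytic total (exact binomial 95% interval on 1 kb equivalents, 1.63% to 3.31%). By night it was 3.61 against 229.4 FPKM, or 1.55% (0.93% to 2.40%). In the mixed tissues the rod form was 119.4 FPKM and the cone form 1.10, or 99.1% rod (98.3% to 99.5%). The log2 ratio of rod to cone form was -5.05 by day, -5.64 by night and 5.84 in the pool.

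Other rod and cone pairs of the cascade were read in the same way. Gnat1 and Gnat2, the transducin alpha subunits of rods and cones, had a rod share of 0.20% by day, 0.14% by night and 98.2% in the mixed tissues, the same order as for Pde6. Not every pair had this form. The rod transducin gamma Gngt1 made 51.7% of the gamma pair by day and 64.3% by night, and the rod arrestin Sag made 88.9% and 94.4% of the arrestin pair. Cnga1, the rod channel alpha subunit, made 96.3% and 95.5% against Cnga3. The level of Cnga3 was low in all libraries, at 0.51 FPKM by day, 0.46 by night and 0.28 in the mixed tissues. Its night and mixed-tissue values are under the detection floor. Pde6 thus stood with transducin alpha, and with transducin beta below, on the cone side in the gland, whereas gamma, arrestin and channel had a rod share above that of the cone form in both pineal libraries. Gnb1 against the cone beta subunit Gnb3 gave 0.86% by day, 0.98% by night and 48.9% in the mixed tissues, also on the cone side in the gland, but Gnb1 is expressed in many tissues outside rods.

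**Figure D2:**
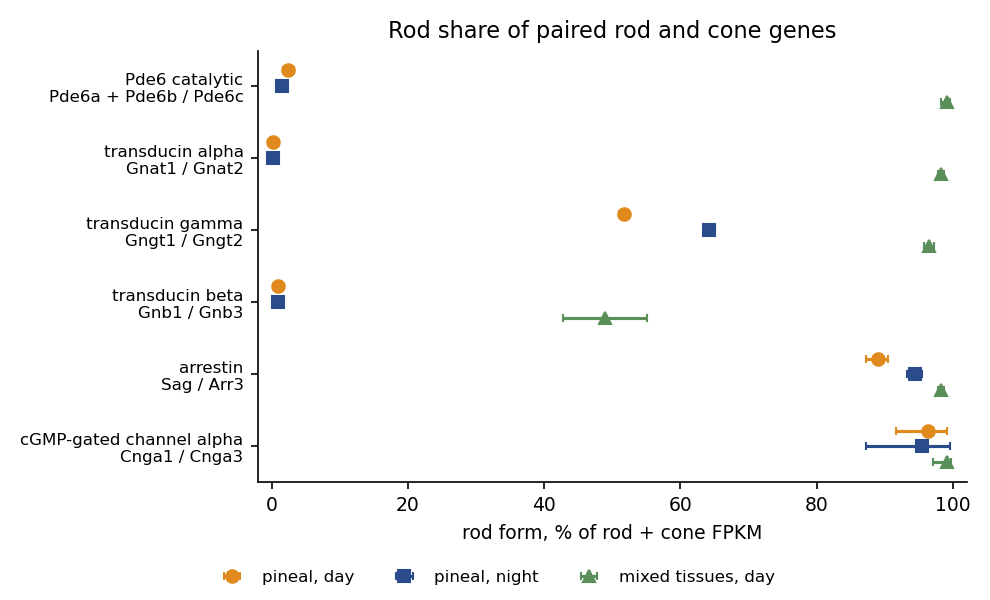
Rod form as a percentage of rod plus cone FPKM (horizontal axis) for 6 pairs of phototransduction genes in the 3 libraries, with exact binomial 95% bars on 1 kb equivalents. The Pde6 catalytic pair lies at 2.34% and 1.55% in the pineal libraries and at 99.1% in the mixed tissues. The arrestin and channel pairs lie near the rod end in all 3, with Cnga3 under the detection floor by night and in the mixed tissues.

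Levels were also compared along the cascade. Pde6c was at 0.20 times the FPKM of Gnat2 by day, 0.37 times by night and 0.17 times in the mixed tissues. For the rod genes in the pool, Pde6a and Pde6b together were at 0.34 times Gnat1. In the gland, where these rod genes were low, the 2 together were at 2.35 times Gnat1 by day and 4.06 times by night. The night value was the higher one for Pde6c and the lower one for Gnat2, which was at 777 FPKM by day and 618 by night.

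Pde6h, the cone inhibitory subunit (NM_053688; chr4:174009849-174014603, rn4), did not go with Pde6c. Its level was 1.22 FPKM by day (bounds 0.60 to 2.21), 0.26 by night (0.016 to 1.18) and 7.46 in the mixed tissues (5.84 to 9.38). The night value is under the floor of 3 fragments, and the pineal bounds overlapped each other and lay below those of the pool. The log2 ratio against the mixed tissues was -1.93 by day (-2.69 to -1.09) and -2.74 by night (-3.35 to -1.65). In the pool Pde6h was at 6.77 times the level of Pde6c, whereas in the gland Pde6c was at 127 times the level of Pde6h by day. The table lists Pde6g as another name of this entry. Its RefSeq identifier is paired with Pde6h in the RefSeq gene table, so it was read as the cone form, and no source used here states how reads shared with Pde6g were handled.

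Pde6d, the prenyl-binding protein (NM_001108806; chr9:85307906-85352836, rn4), varied least between the gland and the pool. It was at 38.1 FPKM by day (bounds 34.1 to 42.4), 27.4 by night (23.1 to 32.2) and 20.0 in the mixed tissues (17.3 to 23.0). The 3 libraries were in that order with bounds that did not overlap, although night and pool bounds were nearly touching. Its log2 ratio against the mixed tissues was 0.89 by day (0.55 to 1.25) and 0.43 by night (0.00 to 0.86). Relative to the 3 catalytic genes together, Pde6d was at 0.24 times their level by day, 0.12 times by night and 0.17 times in the pool.

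Taking the members as a group against the mixed tissues, a difference of 4-fold on the FPKM + 1 scale was used. All 5 members passed the filter of 1 FPKM in at least 1 of the 2 libraries. By day 1 member (Pde6c) was higher and 2 (Pde6a and Pde6b) were lower, where 2.29% of all 11934 genes compared were higher and 13.2% lower. By night 1 member (Pde6c) was higher and 3 (Pde6a, Pde6b and Pde6h) were lower, where 3.09% of genes were higher and 14.4% lower. Pde6h changed sides of the limit between those comparisons, with bounds that overlapped, and its call depends on the pseudocount: at 0.1 it was also lower by day (log2 ratio -2.51), and at 5 it was within 4-fold by night (-1.24).

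Between night and day in the gland, 0 of the 5 members were 2-fold apart, where 6.29% of the 9826 genes compared were. Pde6c had a log2 ratio of 0.55 (counting bounds 0.40 to 0.71), above counting error, and 8.78% of the genes compared had a higher ratio. Pde6d had -0.46 (-0.85 to -0.080), with 17.1% of genes lower. For Pde6a (0.29, bounds -0.86 to 1.42), Pde6b (-0.24, -1.27 to 0.81) and Pde6h (-0.82, -1.66 to 0.44) the bounds included 0. These wide bounds for a 1 kb transcript did not resolve a night and day difference. The median log2 ratio of all genes compared was -0.11. With 1 library at each time, whether the ratios of Pde6c and Pde6d exceed the variation between animals was not tested.

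The other genes of the cascade, a list of 27 of which 26 were analysed, were compared in the same way. Of 22 that could be compared between night and day, 1 reached a 2-fold higher level by night (Sag), 2 were lower (Gucy2e, a guanylate cyclase, and Rgs9bp, the membrane anchor of the transducin shutoff protein Rgs9) and 19 lay within 2-fold. Over all genes compared, 6.29% were 2-fold apart. Rgs9bp went from 13.4 FPKM by day to 2.81 by night. The list had a median log2 ratio of -0.20. Against the mixed tissues by day, 9 of 24 reached a level 4-fold higher, 3 were 4-fold lower and 12 lay between, with a median of 1.58 where all genes had -0.27. By night, 7 were higher, 3 lower and 14 between, with a median of 0.63 where all genes had -0.36. Over all genes compared, 2.29% were higher and 13.2% lower by day, and 3.09% and 14.4% by night. Recoverin, Rcvrn, a calcium sensor of rods and cones, was on the side of Pde6a, at 2.27 FPKM by day, 1.70 by night and 105.3 in the pool. Grk1, a kinase of the shutoff step, was on the side of Pde6c, at 90.7, 65.5 and 16.4.

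**Figure D3:**
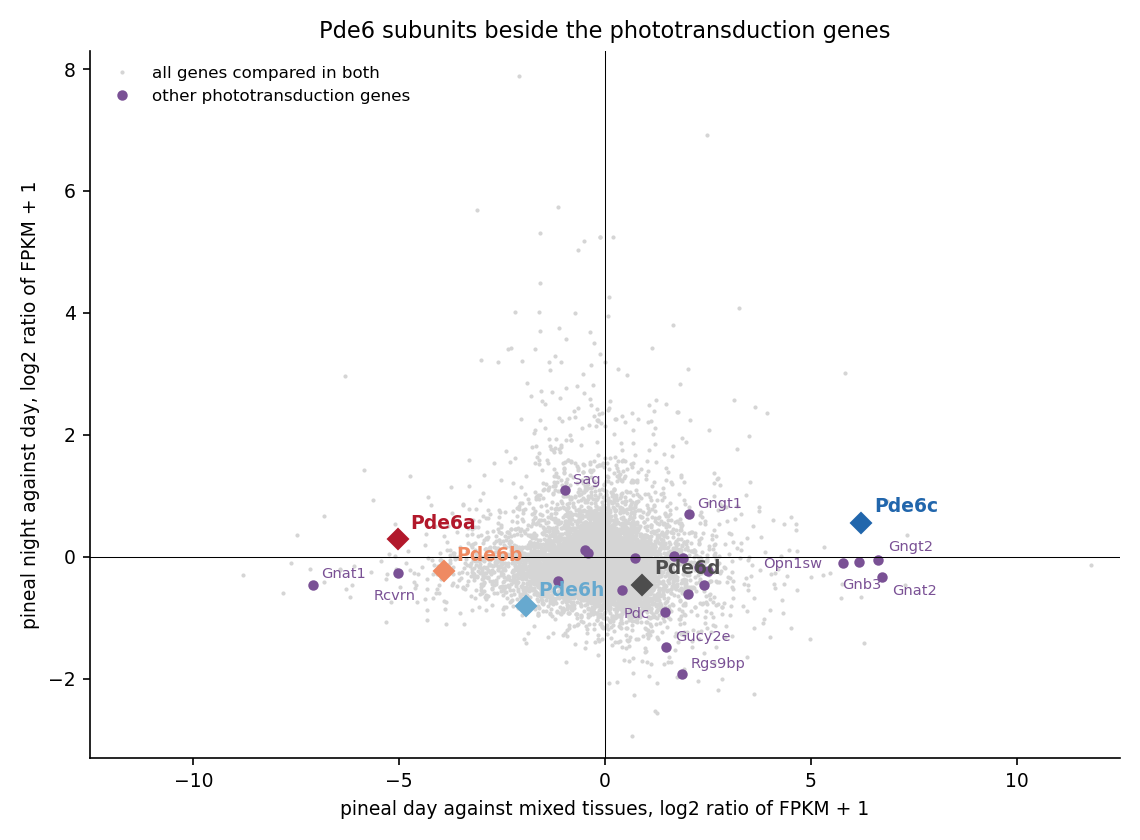
Log2 ratio of FPKM + 1 for the pineal gland by day against the mixed tissues (horizontal axis) and for night against day (vertical axis), with every gene compared in both as a grey point, other phototransduction genes in purple and the Pde6 members as diamonds. The axes share the day library. Pde6c lies far to the right with Gngt2, Gnb3, Gnat2 and Opn1sw, and Pde6a and Pde6b lie on the left with Rcvrn and Gnat1.

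Genes for the assembly, lipid modification and transport of Pde6 were mostly present in the gland. Of 13 listed, 11 were analysed and 10 compared. Of the 11, 10 reached 1 FPKM in both pineal libraries. Rpgr did not, at 0.28 FPKM by day, under the floor, 0.63 by night and 0.69 in the mixed tissues. Aipl1, a chaperone that Pde6 needs for its folding, was at 368 FPKM by day, 312 by night and 51.3 in the mixed tissues, and it was the 1 gene of the list at least 4-fold higher in the gland. Over all genes compared, 2.29% were that much higher by day and 3.09% by night. Unc119, a carrier of transducin alpha, was at 234, 168 and 70.6 FPKM. Arl3, the small GTPase that releases cargo from Pde6d and Unc119, was at 40.3, 28.2 and 57.6 FPKM. The enzymes that add or finish the prenyl group did not go one way. Pggt1b, of geranylgeranyl transfer, was at 12.8, 11.5 and 9.82, Fntb, of farnesyl transfer, at 25.1, 16.7 and 8.21, and Icmt, the methyltransferase, at 49.1, 35.2 and 21.5. Fnta, at 24.2, 18.1 and 31.3, and Rce1, at 5.15, 4.78 and 9.50, were below the pool in both pineal libraries. By night against day 0 of the 10 were 2-fold apart, where 6.29% of all genes compared were. The median log2 ratio of the 10 was -0.32, and their median against the mixed tissues by day was 0.30.

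Among all 22 Pde genes analysed, Pde6c held rank 1 in both pineal libraries, with 56.4% of their summed FPKM by day and 45.5% by night. By day Pde6d (13.8%) and Pde1c, a calmodulin-dependent phosphodiesterase (10.7%), followed. By night Pde4b (18.5%) and Pde10a (9.44%), which hydrolyse cyclic AMP, came next, and Pde6d held rank 4. In the mixed tissues Pde6a (24.9%), Pde6b (21.8%) and Pde6d (7.83%) led, and Pde6c held rank 21. Pde6d does not itself hydrolyse cyclic nucleotides, nor does Pde6h, so these shares describe the named family and not enzyme activity.

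**Figure D4:**
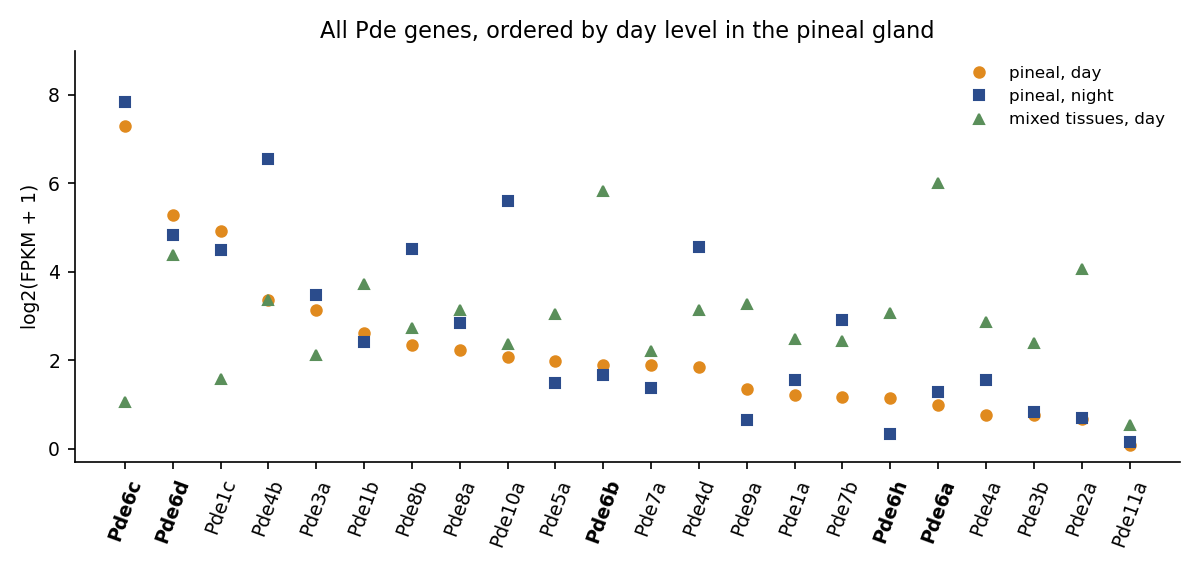
Level of all 22 Pde genes as log2(FPKM + 1) in the 3 libraries, ordered by the day level in the pineal gland, with Pde6 members in bold. Pde6c holds rank 1 in both pineal libraries and rank 21 in the mixed tissues, where Pde6a and Pde6b hold ranks 1 and 2.

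Genes with the most similar profile over the 3 libraries were sought among 8437 named genes of at least 5 FPKM in 1 library, by the distance between log2(FPKM + 1) values centred on each gene's mean. The 3 nearest to Pde6c were Gngt2 (distance 0.44), Gnb3 (0.55) and Gnat2 (0.63), which encode the gamma, beta and alpha subunits of cone transducin. The 3 nearest to Pde6a were Lgals2 (0.015), Cartpt (0.12) and Kif5a (0.13), and those nearest to Pde6b were Hhatl (0.038), Lsamp (0.059) and Agxt2 (0.080). None of these is on the phototransduction list. Pde6d was nearest to Tapbpl (0.022), Drap1 (0.025) and Ewsr1 (0.025), and Pde6h to Tmsb10 (0.020), Tgm2 (0.061) and Kcna2 (0.076). With 3 libraries a small distance is common for profiles shared by many genes, and the pool mixes sources, so these neighbours are a description.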

How the data were processed

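Poly(A) RNA was sequenced, per the labels' protocols, after chemical fragmentation and random priming of material from 10 µg of total RNA, with 15 PCR cycles and paired-end reads of 51 bases, 1 lane per library. The deposited FPKM values were computed by the authors, per the file headers; the submitters' processing notes name TopHat 1.3.1, Cufflinks 1.2.0 and the rn4 genome, and no source used here gives their options. Random priming suits a per-length unit. FPKM depends on how reads of similar genes are shared out and on the library total, and kept PCR duplicates make counts look more precise.

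From the deposited table, 17089 entries were summed by symbol to 16629 genes and regions (pandas 2.3.3, SciPy 1.17.1); 51267 of 51267 values matched the files per sample. Log2 ratios of FPKM + 1 were taken where a gene reached FPKM 1 in either library compared, and set against folds of 2 (night against day) and 4 (against mixed tissues). With 1 library per group there was no test. The count of genes past the fold was checked on day values with known changes placed, without noise, on highly expressed genes. The Poisson bounds, the depth estimate and low values were not simulated. Depth was estimated from receptor gene models as 60.5% (night) and 111% (mixed) of the day library.

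Members and gene lists were chosen with earlier results of these data known. Some listed genes are not reported here. Named genes are the members, listed genes and markers, the 3 leading Pde genes per library, the 3 nearest profiles of each member and entries overlapping a member. Alternatives were other pseudocounts, filters, centring, largest entries and definitions of the rod form.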

Additional observations from a re-analysis of the deposited data

How the results depend on the processing

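The direction of rod against cone catalytic subunits was the same under every alternative run, but most of these runs could not change it. A pseudocount added to both forms keeps the sign. In the gland, the mean or the lower of Pde6a and Pde6b only lowers the form that was already lower. The log2 ratio of rod to cone form (-5.05 by day, -5.64 by night, 5.84 in the mixed tissues) became -4.20, -4.77 and 4.35 with a pseudocount of 5. With a pseudocount of 0.1 it became 6.64 in the mixed tissues. With the mean of Pde6a and Pde6b as rod form it was -5.77 by day and 4.85 in the mixed tissues, and with the lower of the 2 genes -6.30 by day, -6.57 by night and 4.75 in the mixed tissues. The number of members at least 2-fold lower by night went from 0 to 1 with a pseudocount of 0.1, through Pde6h (log2 ratio -1.87), whose night value is under the floor. Against the mixed tissues, members at least 4-fold lower went from 2 to 3 by day at a pseudocount of 0.1 and from 3 to 2 by night at 5, both through Pde6h.

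Counts over all genes moved with the pseudocount. At 0.1, genes lower by night were 518 (207 at a pseudocount of 1). Against the mixed tissues, 424 were higher and 2611 lower by day (273 and 1581), and 2831 lower by night (1725). At 5, they were 231 higher and 64 lower by night against day (411 and 207), 156 and 522 by day against the mixed tissues, and 207 and 553 by night against them (369 and 1725). Of the single members' ratios, 5 of 15 moved beyond counting bounds at 0.1 and 8 of 15 at 5. There were 0 changes of direction for a member past the fold, but a pseudocount added to both libraries cannot cause one. Centring the libraries moved 0 of 15. Taking the largest entry could change no member, since each has 1 entry. No paired analysis was possible because each group has 1 library. Depth limits Pde6h, Pde6a and Pde6b in the gland and Pde6c in the pool most.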

Other observations

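Transcription factors of photoreceptors and the pineal gland were read beside the Pde6 genes, as values only. Crx was at 237 FPKM by day, 421 by night and 31.5 in the mixed tissues, and Otx2 at 189, 337 and 19.7, so both were highest by night, as Pde6c was. Neurod1 was at 138, 147 and 29.4 FPKM. Rxrg, a retinoid receptor of cones, was at 109, 58.9 and 5.81. Thrb, also on the list, was at 1.76, 3.81 and 4.48, below the pool in both pineal libraries. Of 6 factors analysed, 4 exceeded the mixed tissues 4-fold in the gland by day, and 1, Nrl, was lower, where 2.29% and 13.2% of all genes were.

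Markers of other retinal cells differed among themselves. The bipolar cell markers Trpm1 (32.9 FPKM by day, 40.8 by night, 5.74 in the mixed tissues) and Cabp5 (40.6, 71.8 and 2.12) were above the pool, while Pcp2 was listed at 0 in both pineal libraries and at 53.6 in the pool. Of the pigment epithelium markers, Rpe65 and Best1 were listed at 0 in the gland. In the pool Rpe65 was at 1.52 FPKM, and Best1 was at 0.305, under the floor of 0.308. The list's sum of 13.6 FPKM by day and 19.9 by night came mostly from Rlbp1 (13.5 and 19.8), a retinoid carrier also found in Müller glia. Of the 4 glial markers analysed, Rlbp1 among them, 3 were at least 4-fold lower in the gland than in the pool, with Gfap at 10.2, 5.16 and 165. Over all genes compared, 13.2% were that much lower by day and 14.4% by night. Rlbp1 was at 17.4 in the pool.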
